A study of Caenorhabditis elegans with 36 samples.

Results

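Whole C. elegans hermaphrodites of the wild-type strain N2 that had been given rotenone at 100 nM were compared between 1 day (3 libraries) and 6 hours (3 libraries), across every miRNA hairpin in the count table. These 6 libraries were chosen by their labels and are 6 of the 36 in the series. The same times in worms given the vehicle DMSO at 0.1 % (3 libraries each) served to show which of the changes also occurred without rotenone. All 4 groups share strain, sex and tissue. Further groups of 3 libraries are cited for levels only: H2O at 0.1 % at 1 day, and rotenone and DMSO at 2, 3 and 5 days. Rotenone blocks complex I of the mitochondrial respiratory chain. The series title counts the times from treatment, whereas the sample labels enter 6 hours and 1 day as age, and the worms' age at the start of treatment is not stated in the sources used here.

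A miRNA is cut from a hairpin transcript, is loaded into an Argonaute protein and lowers the output of mRNAs that pair with its seed. In this worm lin-4, let-7 and their relatives time the larval stages, and the mir-35 family is abundant in oocytes and embryos and is needed for embryonic development. The counts were made per hairpin, so the 2 arms of a hairpin are not separated, and hairpins of nearly identical sequence can share reads.

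The rotenone libraries held 7360978 to 8088864 counts at 1 day and 11840458 to 14960062 at 6 hours, so 3 counts correspond to 0.375 to 0.421 CPM at 1 day and to 0.190 to 0.227 CPM at 6 hours. Levels are given in CPM, the depth-scaled count, after TMM scaling, which corrects for differences in composition. Each group was sequenced on 1 lane: rotenone at 1 day and DMSO at 6 hours on lane 8, rotenone at 6 hours on lane 1 and DMSO at 1 day on lane 2. Lane and time therefore cannot be told apart within the rotenone worms. The comparison of rotenone at 1 day with DMSO at 6 hours, both on lane 8, is given where it bears on a result. Its groups differ in treatment as well as in time. A value that moves in this comparison, called the shared lane below, therefore cannot be assigned to lane or to rotenone. Rotenone replicate 2 of 6 hours was the lowest of its group for all 8 members of the mir-35 family, and results on that family are also given without it. Across hairpins this library also stood furthest from its group. The chi-square per degree of freedom was 430 and 436 for its pairs, against 153 between replicates 1 and 3. The labels do not state whether libraries within a group stem from different cultures, and the p-values therefore cover only the library-to-library spread, which may be technical.

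Of the 193 hairpins with enough counts to be tested, 123 (63.7%) passed an adjusted p of 0.05 in edgeR's quasi-likelihood test (p-values adjusted after Benjamini and Hochberg), 63 of them higher (32.6%) and 60 lower (31.1%) at 1 day than at 6 hours. Rises were larger than falls: 38 hairpins rose at least 2-fold (19.7%) and 6 fell at least 2-fold (3.11%). A further 58 of the 123 changed by less than 1.5-fold. In 128 hairpins (66.3%) the 3 libraries of 1 day did not overlap the 3 of 6 hours, 62 of them higher (32.1%) and 66 lower (34.2%), and 117 of these were among the 123. The split between rises and falls depends on the scaling: with total counts in place of TMM the median change of all hairpins moved to -0.22 on the log2 scale, against -0.05 with TMM, and 55 hairpins were higher and 86 lower. All 4 scalings tried called 115 of the 123 in the same direction. All adjusted p-values below are from the edgeR test named here, values after ± are SD for CPM and shares and SE for log2 fold changes, n = 3 libraries per group, and each log2 fold change is 1 day over 6 hours.

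**Figure D1:**
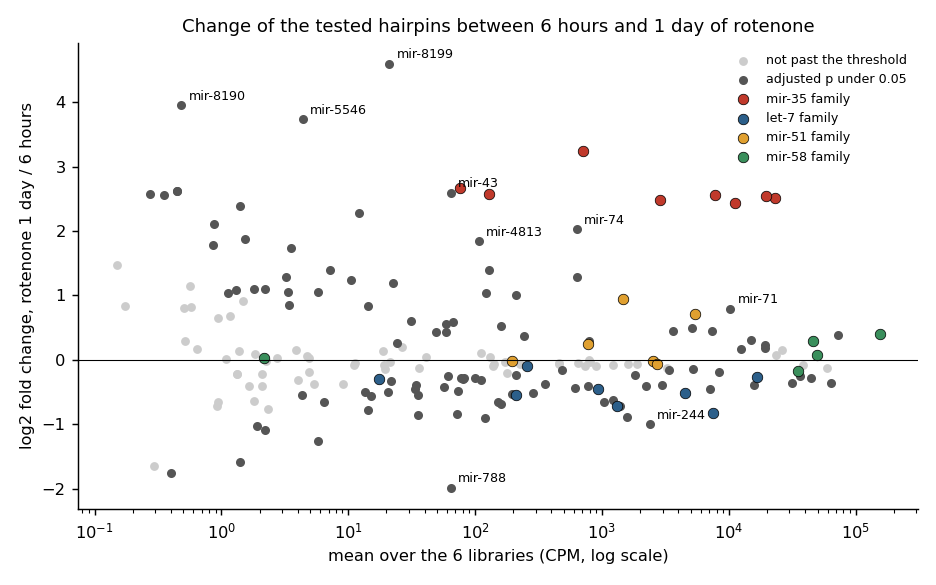
Log2 fold change of each of the 193 tested hairpins in rotenone worms, 1 day over 6 hours, against its mean CPM over the 6 libraries (log axis), with light points for hairpins that did not pass the threshold, dark points for those that did and colours for 4 families whatever their call. The mir-35 family lies between 2.44 and 3.25, the called let-7 family members lie below 0, and the hairpins that rose at least 2-fold include 19 with under 10 CPM.

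The mir-35 family rose as a block. All 8 members were higher at 1 day, against 32.6% of all hairpins, with folds between 5.41 and 9.48 and a largest adjusted p of 5.76e-20. mir-35 had 38459, 38539 and 40374 CPM at 1 day, against 7394, 4837 and 8256 CPM at 6 hours (log2 2.52 ± 0.11). mir-39 had 33138, 31674 and 35032 CPM at 1 day, against 5997, 4724 and 6370.1 CPM at 6 hours (log2 2.55 ± 0.08). mir-38 stood at 1339.8, 1179.8 and 1348 CPM at 1 day and at 143, 106 and 159 CPM at 6 hours (log2 3.25 ± 0.12). In each of these 3 hairpins the lowest library of 1 day lay several-fold above the highest library of 6 hours.

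Levels differed more widely within the family than the folds, which ran from 5.41 to 9.48, with mir-38 the highest. mir-37 averaged 19009.5 ± 373 CPM at 1 day and 3513 ± 708 CPM at 6 hours (log2 2.44), and mir-40 13316 ± 70.1 and 2247 ± 541 CPM (log2 2.57). mir-36 averaged 4854 ± 165 CPM at 1 day and 866 ± 123 CPM at 6 hours (log2 2.49). The least abundant members, mir-42 at 220 ± 9.58 CPM at 1 day and 36.8 ± 7.45 CPM at 6 hours (log2 2.58), and mir-41 at 131 ± 10.1 and 20.7 ± 2.50 CPM (log2 2.66), rose by as much as the abundant ones. Members of this family are similar in sequence, and the sources used here do not say how reads matching several of them were counted.

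Together the family took 10.9% ± 0.31 of all counts at 1 day and 2.16% ± 0.52 at 6 hours. By share of counts mir-35 moved to the 8th place at 1 day, against the 24th at 6 hours, and mir-39 to the 10th, against the 26th. Without replicate 2 of 6 hours the log2 changes of the 8 members were 2.29 to 3.10, and on the shared lane 2.02 to 2.89. The family also rose in DMSO, 4.35- to 8.24-fold, to 12.3% ± 0.56 of counts at 1 day, against 2.46% ± 0.052 at 6 hours. Worms given H2O at 0.1 % (3 libraries, on lane 3) had 11.7% ± 0.51 at 1 day. In libraries of whole worms a larger number of cells of one type and more RNA per cell cannot be told apart.

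Outside the mir-35 family the largest rise was that of mir-8199, a hairpin of the later, higher-numbered annotations. It had 38.8, 40.6 and 42.1 CPM at 1 day, against 2.58, 1.33 and 1.06 CPM at 6 hours (24.2-fold, log2 4.60 ± 0.16, adjusted p = 1.1e-24). It was nearly absent from the 6-hour libraries, with 72 counts over all 3 of them. mir-74 had 966, 1051 and 1028 CPM at 1 day, against 255, 225 and 265 CPM at 6 hours (4.09-fold, log2 2.03 ± 0.07, adjusted p = 1.33e-25), and the groups stood far apart. mir-1832a averaged 20.3 ± 1.19 CPM at 1 day and 4.18 ± 0.80 CPM at 6 hours (log2 2.28 ± 0.15), and mir-4813 167 ± 12.1 and 46.4 ± 4.89 CPM (log2 1.84 ± 0.08). mir-2209a had 173, 192 and 194 CPM at 1 day, against 71.0, 65.7 and 76.0 CPM at 6 hours (log2 1.40 ± 0.08, adjusted p = 1.44e-17). mir-1829b averaged 898 ± 52.7 CPM at 1 day and 369 ± 42.7 CPM at 6 hours (log2 1.28 ± 0.06). None of these 6 hairpins had overlapping groups.

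mir-71, which promotes long life and stress resistance in this worm, had 12628, 13589.6 and 12853 CPM at 1 day, against 7597, 6690.5 and 8255 CPM at 6 hours (log2 0.79 ± 0.06, adjusted p = 9.35e-14). Every 1-day library exceeded every 6-hour library. mir-355, reported to act on the insulin receptor gene daf-2, averaged 163 ± 5.54 CPM at 1 day and 79.4 ± 12.0 CPM at 6 hours (log2 1.04 ± 0.07). mir-51, of a broadly expressed family needed in embryos, averaged 1934 ± 101 CPM at 1 day and 1001 ± 33.0 CPM at 6 hours (log2 0.95 ± 0.07), and its relative mir-54 6684 ± 266 and 4097 ± 154 CPM (log2 0.71 ± 0.06). mir-49, of the miR-29 type, stood at 278 ± 16.4 CPM at 1 day and 138 ± 15.2 CPM at 6 hours (2.01-fold, log2 1.01 ± 0.08).

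**Figure D2:**
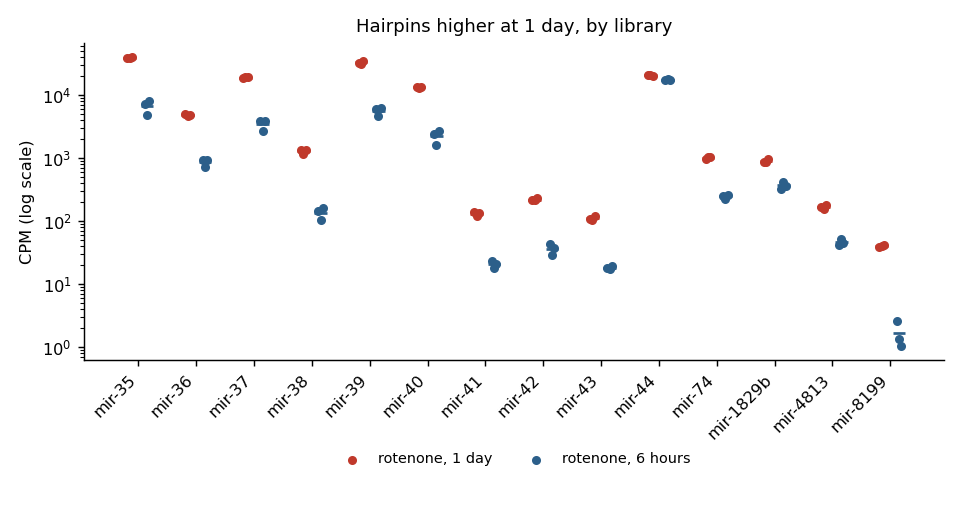
CPM (log axis) of 14 hairpins in each rotenone library, with red points for 1 day to the left of blue points for 6 hours and a short line at each group mean. The 8 members of the mir-35 family and mir-43, mir-74, mir-1829b, mir-4813 and mir-8199 lie well apart between the times, whereas mir-44, shown as the neighbour of mir-42 and mir-43 in the genome, differs by 1.17-fold. mir-44 may share reads with the near-identical mir-45.

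The 6 heterochronic miRNAs, which set the order of larval cell fates, all fell, against 31.1% of all hairpins, with a median log2 change of -0.59 beside -0.05 for all tested. let-7, which drives the larval-to-adult transition, had 5252, 5479 and 5498 CPM at 1 day, against 8789, 10680.2 and 9184 CPM at 6 hours (0.566 of the 6-hour level, log2 -0.82 ± 0.06, adjusted p = 7.2e-16). lin-4, the repressor of lin-14 in the first larval stages, had 767, 851 and 792 CPM at 1 day, against 1150.5, 1258 and 1379.7 CPM at 6 hours (log2 -0.65 ± 0.10, adjusted p = 3.27e-07). In both hairpins all 3 libraries of 1 day lay below all 3 of 6 hours.

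The let-7 sisters that act at the second larval stage fell by unequal amounts. mir-241 averaged 998 ± 55.1 CPM at 1 day and 1635 ± 88.5 CPM at 6 hours (log2 -0.71 ± 0.09). mir-84 averaged 3686 ± 66.7 CPM at 1 day and 5278 ± 105 CPM at 6 hours (log2 -0.52 ± 0.05), and mir-48 15228 ± 350 and 18310.0 ± 1626 CPM (log2 -0.27 ± 0.05). mir-237, which shares its seed with lin-4, had 31754, 35070.4 and 32356 CPM at 1 day, against 37525, 41679.8 and 39034 CPM at 6 hours (log2 -0.25 ± 0.06, adjusted p = 0.000795). The most abundant of the 6 thus had the smallest estimate, within its error of that of mir-48. Together these hairpins made up 5.79% ± 0.15 of all counts at 1 day and 8.36% ± 0.14 at 6 hours. On the shared lane let-7 stood at -0.86, lin-4 at -0.72 and mir-237 at -0.39, all past the threshold, and all 6 passed under every alternative run.

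Of the whole let-7 family, 6 of 8 members fell, against 31.1% of all hairpins, and none rose (median log2 -0.49). The 2 that did not pass were mir-794 (-0.09 ± 0.07) and mir-1821 (-0.29 ± 0.18), the least abundant member at 15.7 ± 2.87 CPM at 1 day and 19.1 ± 1.04 CPM at 6 hours. mir-795 (-0.54 ± 0.07) and mir-793 (-0.45 ± 0.09), more distant relatives of let-7, fell.

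The largest fall among hairpins of at least 10 CPM was that of mir-788, with 24.5, 27.8 and 25.3 CPM at 1 day, against 115, 90.9 and 102 CPM at 6 hours (0.252 of the 6-hour level, log2 -1.99 ± 0.13, adjusted p = 1.53e-16). The groups were far apart. mir-244 had 1647, 1527 and 1588 CPM at 1 day, against 3018, 3478 and 2999.7 CPM at 6 hours (0.502 of the 6-hour level, SE 0.08 on the log2 scale, adjusted p = 2.82e-13), again without overlap. mir-59 averaged 1114 ± 15.5 CPM at 1 day and 2055 ± 258 CPM at 6 hours (log2 -0.88 ± 0.06), and mir-230 1038 ± 72.0 and 1712 ± 54.9 CPM (log2 -0.72 ± 0.08). Rarer hairpins fell as well: mir-1817 (-0.90 ± 0.08), mir-799 (-0.85 ± 0.12), mir-358 (-0.85 ± 0.10) and mir-789-2 (-0.68 ± 0.12) fell at 25.3 to 123 CPM at 1 day.

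Several further hairpins fell by under 1.5-fold. mir-235, of the miR-92 type, which keeps blast cells at rest while larvae starve, had 54702, 57686 and 55199.7 CPM at 1 day, against 70163, 81153 and 64870.1 CPM at 6 hours (log2 -0.37 ± 0.09, adjusted p = 0.000984). It was the second most abundant hairpin at 6 hours and the 4th at 1 day. Without replicate 2 of 6 hours, the library highest in mir-235, its log2 change was -0.26 (adjusted p = 0.0214). mir-246, which promotes long life, averaged 13618 ± 586 CPM at 1 day and 17917 ± 1518 CPM at 6 hours (log2 -0.40 ± 0.05). mir-85, which has been tied to recovery from heat stress, averaged 6032 ± 148 CPM at 1 day and 8233 ± 603 CPM at 6 hours (log2 -0.45 ± 0.07). mir-243, which associates with the Argonaute RDE-1 of RNA interference, averaged 517 ± 19.8 CPM at 1 day and 702 ± 31.4 CPM at 6 hours (log2 -0.44 ± 0.07). mir-57, a regulator of posterior patterning and among the 5 most abundant hairpins, did not pass (-0.12 ± 0.07, adjusted p = 0.13). It failed under 9 of 16 alternatives and passed as a fall on the shared lane (-0.17, adjusted p = 0.0269).

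**Figure D3:**
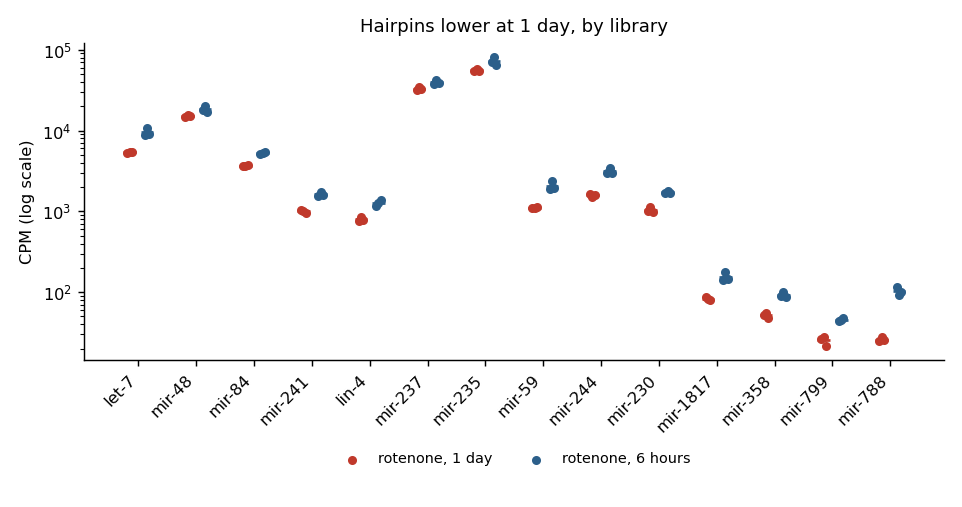
CPM (log axis) of 14 hairpins in each rotenone library, with red points for 1 day to the left of blue points for 6 hours and a short line at each group mean. In each of the 14 all libraries of 1 day lie below all libraries of 6 hours, from mir-237 at 0.839 of its 6-hour level to mir-788 at 0.252.

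Other families did not move together. In the mir-72 family all 3 members rose but by different amounts: beside mir-74, mir-73 averaged 6027 ± 519 CPM at 1 day and 4284 ± 425 CPM at 6 hours (log2 0.49 ± 0.10), and mir-72, the second most abundant hairpin at 1 day, 82093 ± 4032 and 62828 ± 2249.8 CPM (log2 0.39 ± 0.05). In the mir-51 family mir-51, mir-54 and mir-56 (0.24 ± 0.09) rose, whereas mir-52 (-0.01 ± 0.10), mir-53 (-0.01 ± 0.11) and mir-55 (-0.06 ± 0.06) did not pass. The call of mir-56 was lost on leaving out replicate 1 of 1 day (0.19, adjusted p = 0.0969) or replicate 1 of 6 hours (0.21, adjusted p = 0.0629), on the shared lane (0.09, adjusted p = 0.388), with no filter (0.15) and with total counts, the mir-35 family included (0.06) or not (0.20).

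The mir-58 family, related to bantam of flies and known to act on body size and TGF-beta signalling, made up 30.5% ± 0.53 of all counts at 1 day and 28.9% ± 1.3 at 6 hours. Its 5 measured members split. mir-82, the most abundant hairpin at both times, rose, with 177701 ± 9053 CPM at 1 day and 134584 ± 16859 CPM at 6 hours (log2 0.40 ± 0.08, adjusted p = 2.92e-05), as did mir-80 (0.29 ± 0.05). mir-81 fell (-0.17 ± 0.06, adjusted p = 0.0224), a call that was lost on leaving out replicate 1 (-0.14) or 3 (-0.16) of 1 day or replicate 2 of 6 hours (-0.12), and with only the libraries compared (-0.17). mir-58a (0.08 ± 0.07) and the rare mir-58b (0.03 ± 0.35) did not pass.

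In the mir-64 family mir-66 (0.45 ± 0.06) and mir-229 (0.17 ± 0.05) rose, and mir-63, mir-64 and mir-65 did not pass. The direction of mir-229 turned with total counts (-0.01, adjusted p = 0.811) and its call was lost under 6 alternatives, the shared lane (0.01) among them. In the mir-44 family mir-61, which represses vav-1 in vulval precursor cells, rose (0.31 ± 0.04), as did the near-identical mir-44 (0.23 ± 0.05) and mir-45 (0.19 ± 0.05), which did not pass with total counts (0.05 and 0.01) or with no filter (0.14 and 0.10), mir-45 also not in either fit of fewer groups (0.18 and 0.11), while mir-247 fell (-1.26 ± 0.21, 3.42 ± 0.95 CPM at 1 day and 8.17 ± 0.74 CPM at 6 hours). Of the mir-2 family mir-43 rose, at 111 ± 7.36 CPM at 1 day and 18.4 ± 0.91 CPM at 6 hours (log2 2.59 ± 0.09), and mir-797 fell (-0.56 ± 0.14), while mir-2 and mir-250 did not pass. In the miR-9 type pair mir-79 fell (-0.38 ± 0.07) and mir-75 did not pass (-0.07 ± 0.10), and in the miR-29 type pair mir-49 rose and mir-83 did not pass (-0.20 ± 0.09, adjusted p = 0.0543). The result for mir-83 depended on the setting: it failed under 7 of 16 alternatives and passed on the shared lane (-0.22, adjusted p = 0.036).

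The 8 miRNAs tied to lifespan split into 3 higher and 4 lower, against 32.6% and 31.1% of all hairpins, with a median log2 change of -0.12. mir-71, mir-80 and mir-239a (0.30 ± 0.06) rose. lin-4, mir-246, mir-239b (-0.62 ± 0.10) and mir-238 (-0.19 ± 0.06) fell, and mir-34, which acts in the DNA damage response, did not pass (-0.04 ± 0.05). mir-239a and mir-239b, which share their seed, thus moved in opposite directions, at 868 ± 26.3 and 961 ± 28.0 CPM at 1 day and 706 ± 53.5 and 1475 ± 221 CPM at 6 hours. The call of mir-239a was lost with total counts (0.12, adjusted p = 0.108), and that of mir-238 on leaving out replicate 3 of 6 hours (-0.12) and on the shared lane (-0.01). Of the 10 miRNAs tied to stress, which share 6 members with the lifespan list, 5 rose and 2 fell, against 32.6% and 31.1% of all hairpins (median log2 0.16), whereas with total counts 3 rose and 3 fell (median log2 -0.0234). Neither list has 1 direction of known effect.

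Markers of muscle, intestine and glia moved by under 1.5-fold. mir-1, which is made in muscle, averaged 632 ± 22.1 CPM at 1 day and 652 ± 61.9 CPM at 6 hours (log2 -0.05 ± 0.10, adjusted p = 0.692), with overlapping groups. mir-60 of the intestine averaged 1662 ± 99.9 CPM at 1 day and 1949 ± 42.4 CPM at 6 hours (log2 -0.23 ± 0.09, adjusted p = 0.0297). This call was lost on leaving out any 1 of 5 of the 6 libraries, all but replicate 2 of 1 day (-0.23 to -0.18), and on the shared lane (-0.14, adjusted p = 0.194). mir-228 of glia averaged 27417 ± 1661 CPM at 1 day and 35295 ± 1086 CPM at 6 hours (log2 -0.36 ± 0.11, adjusted p = 0.00273), and stood at -0.67 on the shared lane.

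The 4 hairpins restricted to neurons gave 1 rise and 2 falls, where 63.7% of all hairpins passed. mir-790, a relative of mir-228, had 79.0, 77.7 and 84.0 CPM at 1 day, against 47.7, 53.9 and 58.9 CPM at 6 hours (log2 0.59 ± 0.11, adjusted p = 1.26e-05). mir-791, which acts in carbon dioxide-sensing neurons, had 10.8, 9.54 and 11.3 CPM at 1 day, against 19.8, 15.8 and 19.0 CPM at 6 hours (log2 -0.78 ± 0.15, adjusted p = 2.55e-05). Neither had overlapping groups. lsy-6, which makes the left and right ASE taste neurons unlike, stood at 56.1 ± 3.21 CPM at 1 day and 67.0 ± 3.41 CPM at 6 hours (log2 -0.26 ± 0.09, adjusted p = 0.0135). Its call was lost on leaving out replicate 3 of 1 day (-0.21) or replicate 1 of 6 hours (-0.22). It was also lost with additive terms for treatment, time and lane (-0.045, adjusted p = 0.634), which estimate a change shared by all treatments. mir-124 of sensory neurons, at 19.6 ± 3.19 CPM at 1 day and 17.9 ± 0.33 CPM at 6 hours, did not pass (log2 0.13 ± 0.13).

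Of the mirtrons, which are released by splicing in place of Drosha cleavage, mir-1018 rose (1.19 ± 0.13), mir-1020 fell (-0.55 ± 0.11), mir-62 did not pass (-0.13 ± 0.11) and mir-1019 had too few counts to be tested. Mirtrons thus showed no common direction.

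Hairpins that lie together in the genome did not always change together. By name, 191 of the 193 tested hairpins matched the Ensembl annotation of assembly WBcel235. Of these, 61 fell into 23 clusters in which each hairpin starts within 10 kb of the next on 1 strand. In 7 clusters all members were called in 1 direction, and in 2 clusters members were called in both. Of all hairpins 32.6% were called higher and 31.1% lower, and how many such clusters these shares alone would give was not worked out. The cluster of mir-35 to mir-41 rose as a whole. mir-42 and mir-43 rose by log2 2.58 and 2.59, and mir-44 beside them by 0.23. mir-44 may share reads with the near-identical mir-45, which is not in this cluster. The value of mir-44 therefore cannot be assigned to this cluster alone. mir-74 rose by 2.03 between mir-73 at 0.49 and mir-75 at -0.07. mir-71 rose by 0.79 beside mir-2 at -0.09, and mir-51 by 0.95 beside mir-53 at -0.01. The 2 clusters called in both directions were mir-228 (-0.36) with mir-790 (0.59), and mir-80 (0.29) with mir-238 (-0.19) and mir-90 (-0.29), where the call of mir-238 is among those lost above. The pairs mir-230 and mir-791, mir-357 and mir-358, mir-48 and mir-241, and mir-247 and mir-797 fell together.

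Among the tested hairpins numbered 1000 and above, which entered the annotation late and are mostly rare, more rose than fell. Of the 121 hairpins in this class 76 were tested, with a median of 2.49 CPM over the 6 libraries. Of the 76, 29 rose (38.2%) and 13 fell (17.1%), against 32.6% and 31.1% of all hairpins (median log2 0.23). Of the 29, 24 rose by at least 2-fold. The filter drew on all 12 groups, most of them at 1 day or later, and could keep rare hairpins that were low at 6 hours. The split of this class is therefore no test of its direction. With no filter, all hairpins split into 59 higher and 72 lower. Of the 117 other tested hairpins, with a median of 731 CPM, 34 rose and 47 fell (median log2 -0.09), 14 of the 34 by at least 2-fold. With total counts the median of the late-numbered hairpins was 0.06. Among those under 10 CPM, mir-5546 had 188 counts over the 3 libraries of 1 day and 26 over those of 6 hours (log2 3.74 ± 0.32), mir-5552 126 and 71 counts (1.74 ± 0.27), and mir-4937 240 and 172 counts (1.40 ± 0.19). mir-8190 had 21 counts at 1 day and 2 at 6 hours, a ratio of 19.8 after scaling (exact 95% counting interval 4.85 to 175), and its call was lost on the shared lane (log2 0.95). mir-8189 fell, with 16 counts at 1 day and 92 at 6 hours (-1.59 ± 0.46), and mir-2953 with 32 and 129 counts (-1.09 ± 0.32), a call lost on the shared lane (-0.74). The interval covers counting error only.

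Most of the change also took place in the vehicle. Between the same times in DMSO 126 of 193 hairpins passed (65.3%), 59 higher (30.6%) and 67 lower (34.7%), and 104 hairpins passed in rotenone and in DMSO in the same direction, 0 in opposite directions. Across the 133 hairpins of at least 10 CPM the log2 changes in rotenone and in DMSO had a Pearson r of 0.97, and across all 193 of 0.86, a description in which hairpins are not independent and the 4 groups lie on 3 lanes. mir-39 changed by log2 2.55 in rotenone and 2.36 in DMSO, mir-8199 by 4.60 and 4.16, mir-788 by -1.99 and -2.04, and mir-71 by 0.79 and 0.62.

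The change from 6 hours to 1 day differed between rotenone and DMSO in 31 hairpins (16.1%) by a test of the difference itself, 27 higher in rotenone (14%) and 4 lower (2.07%). In 18 of the 27 both treatments gave a negative estimate that was smaller in rotenone. let-7, for example, fell by 0.82 on the log2 scale in rotenone and by 1.23 in DMSO, a difference of 0.41 ± 0.08 (adjusted p = 0.000231) that did not pass without replicate 2 of DMSO at 1 day (0.33, adjusted p = 0.0671). The number and its split depended on the scaling: with total counts 18 hairpins passed, 5 higher and 13 lower, and without replicate 2 of DMSO at 1 day 8 passed, 3 higher and 5 lower. The 4 groups lay on 3 lanes, so a difference between lanes cannot be told apart from this difference.

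Under all 20 settings, the main one included, 5 hairpins kept a difference. None of these settings accounts for lane. mir-72 had 78786, 80908 and 86584 CPM in rotenone at 1 day, against 61697, 61368 and 65419 CPM in rotenone at 6 hours, whereas in DMSO it averaged 66736 ± 2506 CPM at 1 day and 71086 ± 159 CPM at 6 hours. The rise in rotenone was 0.39 and the value in DMSO -0.09, a difference of 0.48 ± 0.07 (adjusted p = 1.46e-05; 0.29 to 0.51 over the alternatives). mir-2209a rose more in rotenone (1.40) than in DMSO (0.75), a difference of 0.64 ± 0.12 (adjusted p = 0.000187). mir-244 fell more in rotenone (0.502 of its 6-hour level) than in DMSO (0.797 of it), with a log2 difference of -0.67 ± 0.12 (adjusted p = 0.000154).

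mir-791 fell in rotenone (-0.78) and stood at 0.05 in DMSO, with means of 10.5 ± 0.89 CPM in rotenone at 1 day and 18.2 ± 2.11 CPM in rotenone at 6 hours, and of 14.5 ± 1.3 CPM in DMSO at 1 day and 14.03 ± 1.01 CPM in DMSO at 6 hours (difference -0.83 ± 0.21, adjusted p = 0.00454). mir-67 rose less in rotenone (0.56) than in DMSO (1.01), by -0.45 ± 0.13 (adjusted p = 0.0104). Of the mir-35 family only mir-41 passed this test (0.54 ± 0.13, adjusted p = 0.00332), and not with total counts (0.37). In the let-7 family 7 of 8 members passed, all higher in rotenone, against 14% of all hairpins. let-7 and mir-795 passed under all 4 scalings, but without replicate 2 of DMSO at 1 day none of the 7 passed (differences of 0.13 to 0.38, adjusted p of 0.0671 to 0.511).

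**Figure D4:**
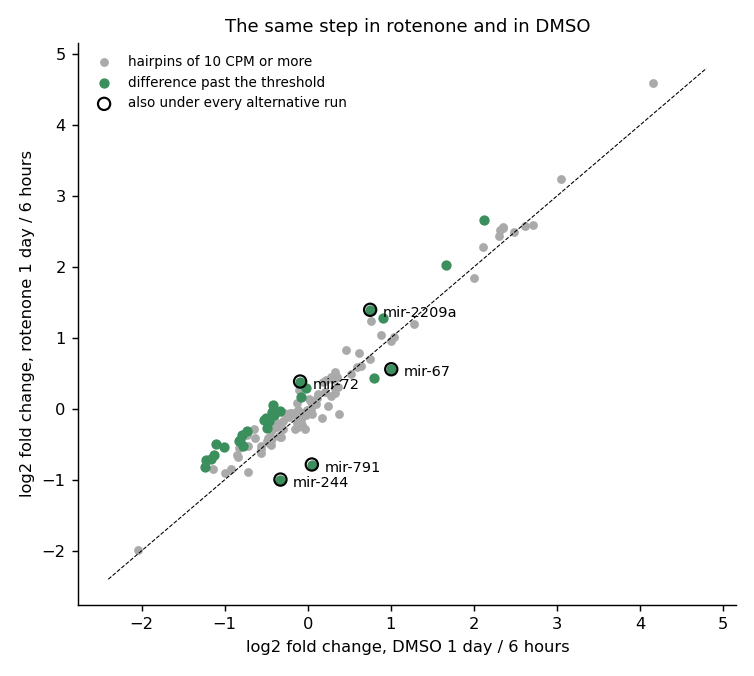
Log2 fold change 1 day over 6 hours in rotenone (vertical axis) against that in DMSO (horizontal axis) for hairpins of at least 10 CPM, with the dashed line at equal change, green points for differences past the threshold and black rings for the 5 hairpins that passed under every setting. None of these settings accounts for lane. Most points lie near the line, with mir-72 and mir-2209a above it and mir-244, mir-791 and mir-67 below it.

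The later rotenone libraries show where each level went next, as means without a further test. The group of 3 days lay on lane 8, as did that of 1 day, the group of 2 days on lane 2 and that of 5 days on lane 3. The share of the mir-35 family was 2.16% at 6 hours, 10.9% at 1 day, 13.1% at 2 days, 14.4% at 3 days and 9.63% at 5 days. let-7 averaged 9551 CPM at 6 hours and 5409.9, 3323, 2498 and 2035 CPM at 1, 2, 3 and 5 days, lower at each later time. mir-237 averaged 39413 CPM at 6 hours and 33060.0, 20933, 14923 and 12007 CPM at these days, so that its small fall by 1 day was followed by larger ones.

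Other courses turned. mir-74 averaged 248 CPM at 6 hours and 1015, 1124, 715 and 398 CPM at 1, 2, 3 and 5 days, and mir-8199 1.66 CPM at 6 hours and 40.5, 75.4, 31.1 and 16.5 CPM. mir-1832a went on to higher values, 4.18 CPM at 6 hours and 20.3, 29.3, 58.8 and 84.1 CPM. mir-71 stayed near its 1-day level, with 7514 CPM at 6 hours and 13023, 14290.2, 13019.9 and 12393 CPM. mir-48 and mir-84, lower at 1 day, averaged 20056 and 5698 CPM at 5 days, against 18310.0 and 5278 CPM at 6 hours.

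**Figure D5:**
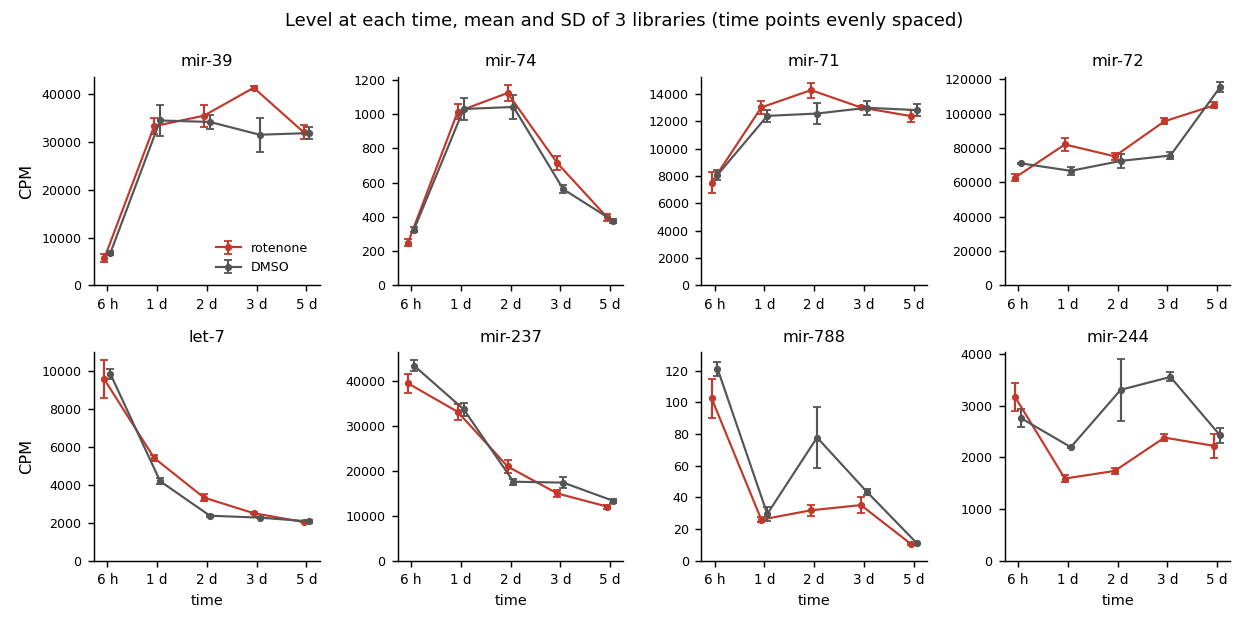
Mean CPM with SD of 3 libraries at 6 hours and 1, 2, 3 and 5 days for 8 hairpins, in red for rotenone and grey for DMSO, with time points evenly spaced and each panel on its own linear axis from 0. mir-39, mir-74 and mir-71 stand higher and let-7, mir-237 and mir-788 lower at 1 day than at 6 hours under both treatments, whereas the rise of mir-72 by 1 day appears in rotenone and the fall of mir-244 is deeper there.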

How the data were processed

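The counts are raw read counts per miRNA hairpin, deposited by the authors as 1 table of 250 hairpins over 36 libraries. Per the labels' protocols the libraries were made with the TruSeq small RNA kit from total RNA of whole worms. The submitters' processing notes list BWA 0.7.12-r1039, SAMtools 1.3.1-9, Trimmomatic 0.36 and bcl2fastq 1.8.4. Which genome build and miRNA annotation were used, and how reads matching more than 1 hairpin were counted, is not stated in the sources used here.

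In R 4.3.3 the filter filterByExpr (by group, minimum count 10) left 193 of the 241 hairpins that had any count. The 57 removed from the 250 held 0.000732% of counts. All 36 libraries, in 12 groups of 3, were scaled with TMM and fitted with 1 mean per group in edgeR 4.0.16 (24 residual and 12.6 prior degrees of freedom, common biological coefficient of variation 0.0678). The contrasts were rotenone 1 day minus 6 hours, and this minus the same in DMSO, each adjusted by Benjamini-Hochberg over all 193 with a threshold of 0.05. Replicates differed by more than sampling noise in each of the 12 pairs within the 4 groups compared. Lists are described by counts and medians.

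The text names the 12 top rises and 12 top falls of called hairpins of at least 10 CPM without overlap, up to 3 rarer rises and falls by p, the heterochronic miRNAs, the mir-35 family, tissue markers, the 5 most abundant hairpins, up to 4 members of a list by p, and the 6 largest differences in each direction; mir-34, mir-355, mir-1019, mir-85, mir-243, mir-52, mir-53, mir-63, mir-58b, mir-1821, mir-793, mir-794, mir-90 and mir-357 were added after their values were seen. The members and lists were chosen with earlier results of these data known, and the list of late-numbered hairpins was filled in after the table had been read. Alternatives were size factors of DESeq2 1.42.0, total counts, total counts without the mir-35 family (chosen after seeing the data), no filter, DESeq2, a replicate block, fits of fewer libraries, omission of 1 library at a time, and 2 ways to meet the lanes: rotenone at 1 day against DMSO at 6 hours on the same lane, and additive terms for treatment, time and lane. The 2 ways to meet the lanes were run for the change in rotenone only, not for the difference between treatments. The additive terms estimate a change from 6 hours to 1 day shared by all treatments, not that of rotenone alone.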

Additional observations from a re-analysis of the deposited data

Results flagged for a closer look

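A test of the difference between treatments singled out 31 hairpins whose change between 6 hours and 1 day differed between rotenone and DMSO. Those with the largest positive differences (rotenone minus DMSO, log2) were mir-8190 at 3.77, mir-2209a at 0.64, mir-784 at 0.61, mir-41 at 0.54, mir-230 at 0.50 and mir-72 at 0.48. The negative ones were mir-791 at -0.83, mir-244 at -0.67, mir-67 at -0.45 and mir-231 at -0.37. The difference of mir-8190 rests on 21 counts in rotenone at 1 day and 2 in rotenone at 6 hours and failed under 4 of 19 alternatives. Among these were the fits without replicate 1 of DMSO at 6 hours (2.23, adjusted p = 0.38) and without replicate 2 of DMSO at 1 day (3.46, adjusted p = 0.0753). mir-784, at 11.3 ± 1.58 CPM in rotenone at 1 day and 15.9 ± 2.72 CPM in rotenone at 6 hours, failed under 14 of 19 alternatives and mir-231 under 6. mir-41 failed under 3 and mir-230 under 2. mir-2209a, mir-72, mir-791, mir-244 and mir-67 passed under all 19, none of which accounts for lane.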

How the results depend on the processing

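The alternatives called between 109 and 146 hairpins as changed between 1 day and 6 hours, against 123, and 89 of the 123 were called in the same direction under all 17 settings. The 146 came with the additive terms, which estimate a change shared by all treatments and not that of rotenone alone. Leaving out 1 library in turn gave 111 to 120 calls for this change and 8 to 33 for the difference between treatments, against 31, with 8 without replicate 2 of DMSO at 1 day. The difference was called in 19 hairpins with size factors (15 higher, 4 lower), 18 with total counts (5 and 13), 19 with total counts without the mir-35 family (5 and 14), 18 with no filter (14 and 4) and 17 with only the libraries compared (12 and 5). DESeq2 called 124 for the change and 27 for the difference.

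List medians moved with total counts to -0.77 (heterochronic), -0.67 (let-7 family), -0.63 (lin-4), 0.31 (mir-72), 0.23 (mir-49), -0.27 (mir-2), -0.41 (mir-75), -0.38 (mir-238), 0.027 (mir-44), -0.30 (lifespan), -0.30 (mirtrons), -0.24 (neurons) and 0.057 (late-numbered). They turned sign for the mir-51 (-0.0646), mir-58 (-0.10) and mir-64 (-0.033) families and for stress (-0.0234). Without the mir-35 family in the total, medians were -0.53 (let-7), 0.10 (mir-64), 0.16 (mir-44), -0.27 (mir-75) and -0.17 (mirtrons). On the shared lane they were 2.27 (mir-35), -0.54 (let-7), -0.56 (lin-4), 0.26 (mir-49), 0.075 (mir-64), 0.015 (mir-58), -0.20 (mir-2), 0.16 (mir-44), -0.013 (mir-238) and -0.0079 (mirtrons), with the mir-51 family turned to -0.0235. With total counts every list median was lower than with TMM, as was the median of all hairpins (-0.22, against -0.05). Total counts leave out the TMM factors, which were 1.05 to 1.16 at 6 hours and 0.97 to 1.00 at 1 day in rotenone. These moves are thus a shift of scale and not separate results for each list. The cause of the moves on the shared lane was not tested. Of 1295 values of single named hairpins under alternatives, 1226 kept their side of the threshold, 35 lost the call and 33 gained one. Some estimates among the 1226 that did not pass changed sign. That of mir-1, negative in the main fit, was 0.025 without replicate 2 of 6 hours. Of the called hairpins mir-229 reversed, to -0.014 with total counts.

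The replicate block gave 124 and 32 calls. Deviations of same-numbered libraries had correlations of -0.07, -0.22 and -0.03, against -0.11 to 0.19 for the other pairs. With 3 libraries per group this cannot show whether the numbers mark a shared culture or batch. Depth limits the rare hairpins: 3 counts are 0.375 to 0.421 CPM at 1 day and 0.190 to 0.227 CPM at 6 hours.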
